A study of Mus musculus with 22 samples.

Results

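The complement genes C1qa, C1qb, C1qc, C3, Cfb, Cfp, C3ar1 and C5ar1 were followed through every treatment group of the series. They were taken by gene symbol and Ensembl identifier, and all 8 were found among the 38293 genes of each deposited table. The cells were macrophages grown from mouse bone marrow for 7 to 8 days in medium with 10% fetal calf serum and 30% L929 cell supernatant, a source of macrophage colony-stimulating factor. The mice were Il10-/- on the C57BL/6 background and 6 to 12 weeks old, so every group, the controls included, lacked the endogenous Il10 gene product and met interleukin-10 (IL-10) only where it was added. The groups were both agents (lipopolysaccharide, LPS, a bacterial cell wall component that Toll-like receptor 4 recognises, together with IL-10), LPS alone, IL-10 alone and an untreated control, with each agent at 100 ng per ml.

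RNA was sequenced from 22 libraries, 2 in each of 11 groups. The 3 h groups form 1 table with their own control, and the 6 h and 12 h groups form another in which 1 control pair, with no stated harvest time, serves both times. Changes against that control may therefore include time in culture. The labels do not say whether the 2 libraries of a group came from separate cultures or animals, so p-values measure only the spread between these libraries, which may be technical.

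Complement is a cascade of plasma proteins that coats and lyses microbes and recruits phagocytes. C1q, built of A, B and C chains, starts the classical pathway by binding antibody complexes, C-reactive protein or dying cells. The pathways converge on C3, whose cleavage yields the opsonin C3b and the small peptide C3a. Factor B (Cfb) supplies the protease of the alternative pathway convertase, and properdin (Cfp) stabilises that convertase. C3a and C5a act through the G protein-coupled receptors C3ar1 and C5ar1 on myeloid cells. Macrophages are a known local source of C1q, C3, factor B and properdin.

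The libraries held 9337222 to 21455291 reads at 3 h and 15162195 to 31772075 in the other table, and values below are normalized reads, that is reads divided by a library's deposited size factor. Changes are log2 changes of the value plus 1 with their standard error (SE), and a gene was called at a Benjamini-Hochberg adjusted p under 0.05 in limma, fitted to all genes of a table. All 8 macrophage markers examined (Adgre1, Csf1r, Cd68, Mertk, Fcgr1, Lyz2, Itgam and Spi1) reached 10 normalized reads in at least 2 libraries of each table. LPS against control depended on how libraries were scaled. With each library scaled to an equal total, the median gene shifted by -0.56 at 3 h, -1.16 at 6 h and -0.75 at 12 h, and the share of calls that were higher was 18.1%, 16.7% and 20.0%, against 51.5%, 47.6% and 49.9% with the deposited factors. Quantile normalization gave 39.6% at 3 h. For LPS with IL-10 against LPS at 6 h the median gene shifted by 0.32, and the share of calls that were higher was 83.7%, against 57.6%.

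With LPS, C3 and Cfb rose at all 3 times, C3ar1 and C1qb rose with the deposited scaling, and C5ar1 was higher at 3 h with that scaling and lower at 12 h. At 3 h, 5 of the 8 genes were called higher with LPS than in control and none lower, where 27.6% of the 12338 genes tested were called higher and 25.9% lower. The 3 h calls were 2 higher and 1 lower under equal library totals, 2 higher and 2 lower under quantile normalization, and between 2 (without the second LPS library) and 8 (without the second control library), all higher, with 1 library left out; they were 3 without the first LPS library. The share of all genes called under each of these alternatives is not set beside the counts, so they do not show whether the 8 genes differ from the rest. Both LPS libraries of 3 h lay above both controls for all 8 genes, as for 37.9% of all genes tested. At 6 h, 4 were higher and none lower, with 28.4% and 31.3% of 12817 genes called in those directions. At 12 h, 4 were higher and 1 was lower, with 23.7% and 23.8% of all genes called. Cfb is among the genes counted higher at each time. It reached the filter level of 10 normalized reads only in libraries with LPS, so its calls are not independent of the filter.

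Adding IL-10 to LPS lowered 6 of the 8 genes at 6 h, namely C3, the 3 C1q chains, C5ar1 and Cfb, and raised none, where 10% of all genes tested were called lower and 13.7% higher. The count was 3 under equal library totals, 2 under quantile normalization, 1 without the first LPS library or the second library with both agents, and 3 without the second LPS library. The share of all genes called under each of these alternatives is not set beside the counts here either. Between LPS with IL-10 and LPS at 6 h the libraries did not overlap for any of the 8 genes, all lower with IL-10, as was true of 33.5% of all genes tested. At 3 h, C5ar1 was the single gene called, and it was lower. The background there was 4.92% of genes called lower and 4.68% higher. At 12 h limma called 0 of the 8, with 4.92% of all genes called in either direction. There 1 gene, C3, had an unadjusted p under 0.05, edgeR called 0 and DESeq2 called 1.

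IL-10 alone changed none of the 8 at any time by the adjusted p of limma. At 3 h, 1 gene, C5ar1, had an unadjusted p under 0.05, edgeR and DESeq2 called 0 each, and limma called 1.64% of all genes. At 6 h the counts were 0 by the unadjusted p, edgeR and DESeq2, and limma called 0.0624% of all genes. At 12 h, 1 gene, Cfb, had an unadjusted p under 0.05, edgeR and DESeq2 called 0, and limma called 1.56% of all genes. These shares are those of the adjusted p and are no background for the counts by the unadjusted p, edgeR or DESeq2.

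**Figure D1:**
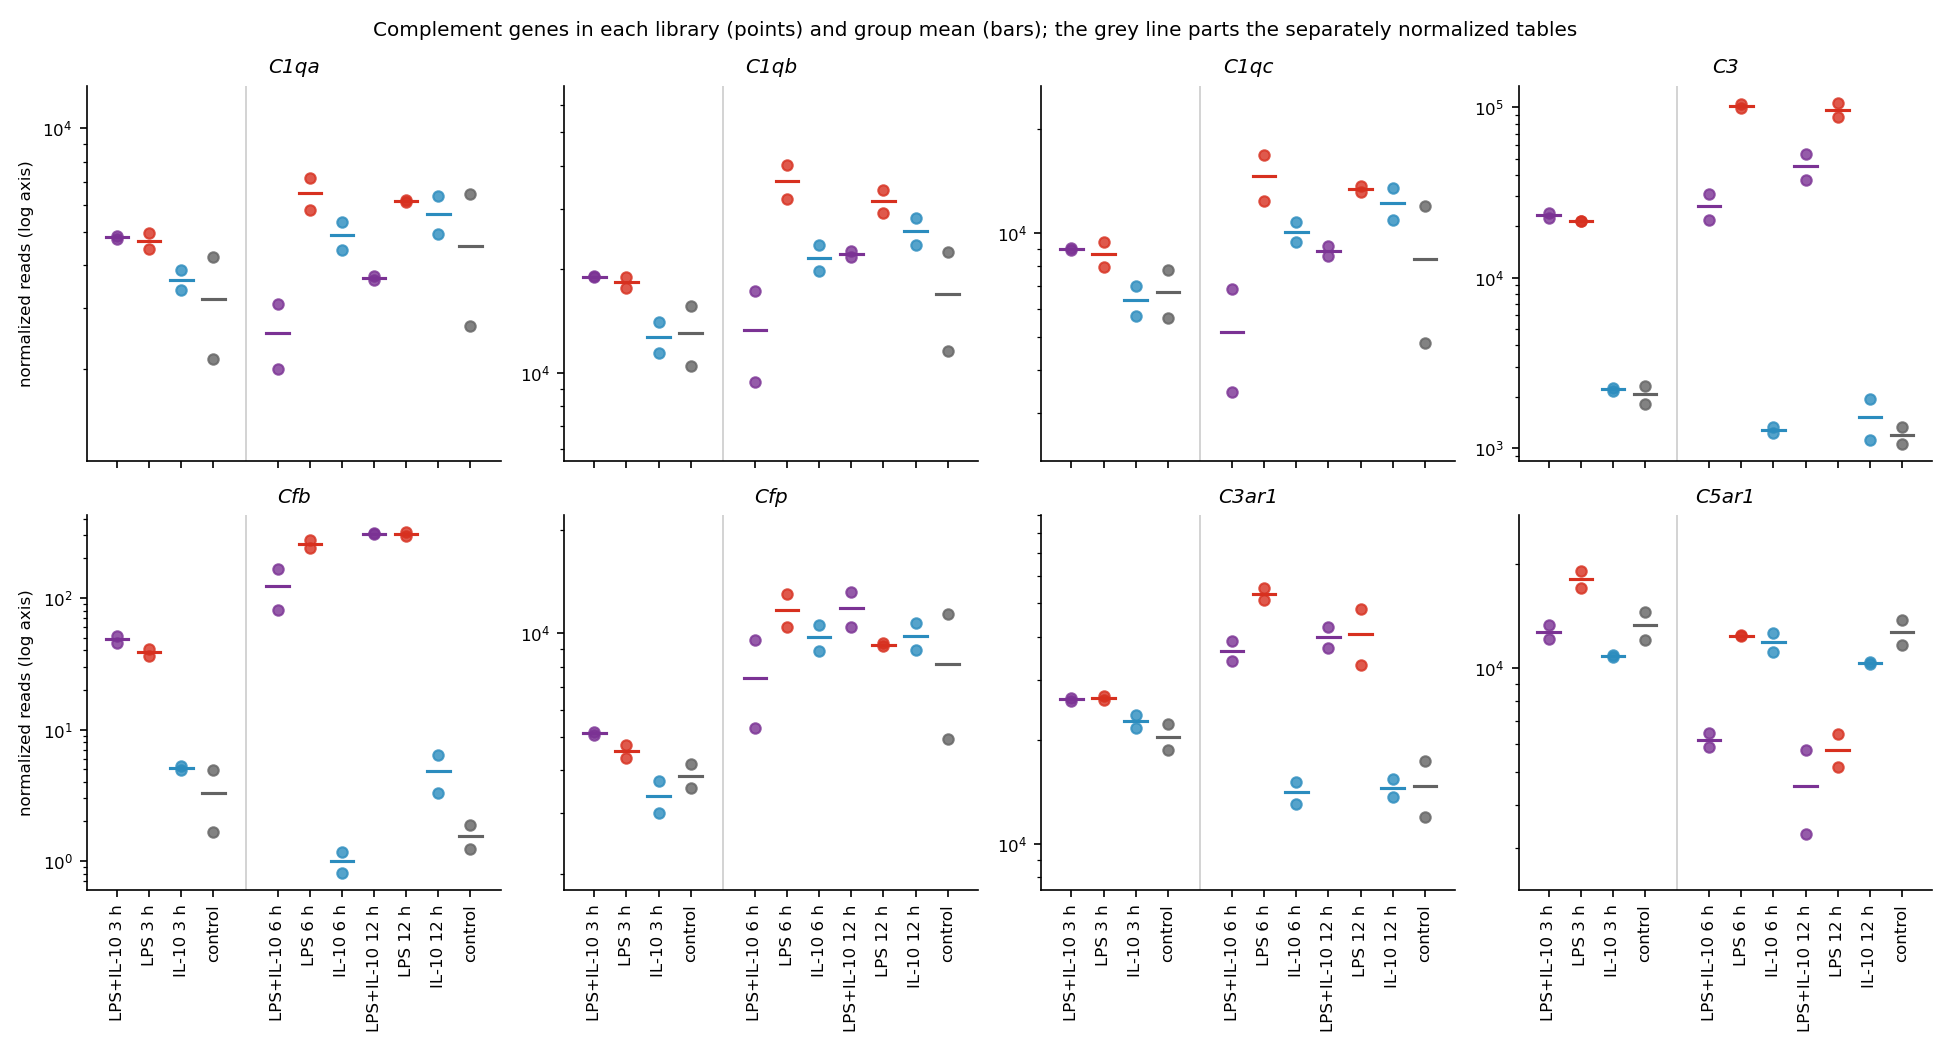
Normalized reads of each complement gene (log axis) in every library (points) with the mean of each group (bars), separately for the 3 h table on the left and the 6 h and 12 h table on the right of each panel. C3 and Cfb separate the LPS groups from the groups without LPS at every time, with C3 at 21875 and 30766 with both agents at 6 h and at 98653 and 103873 with LPS alone.

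**Figure D2:**
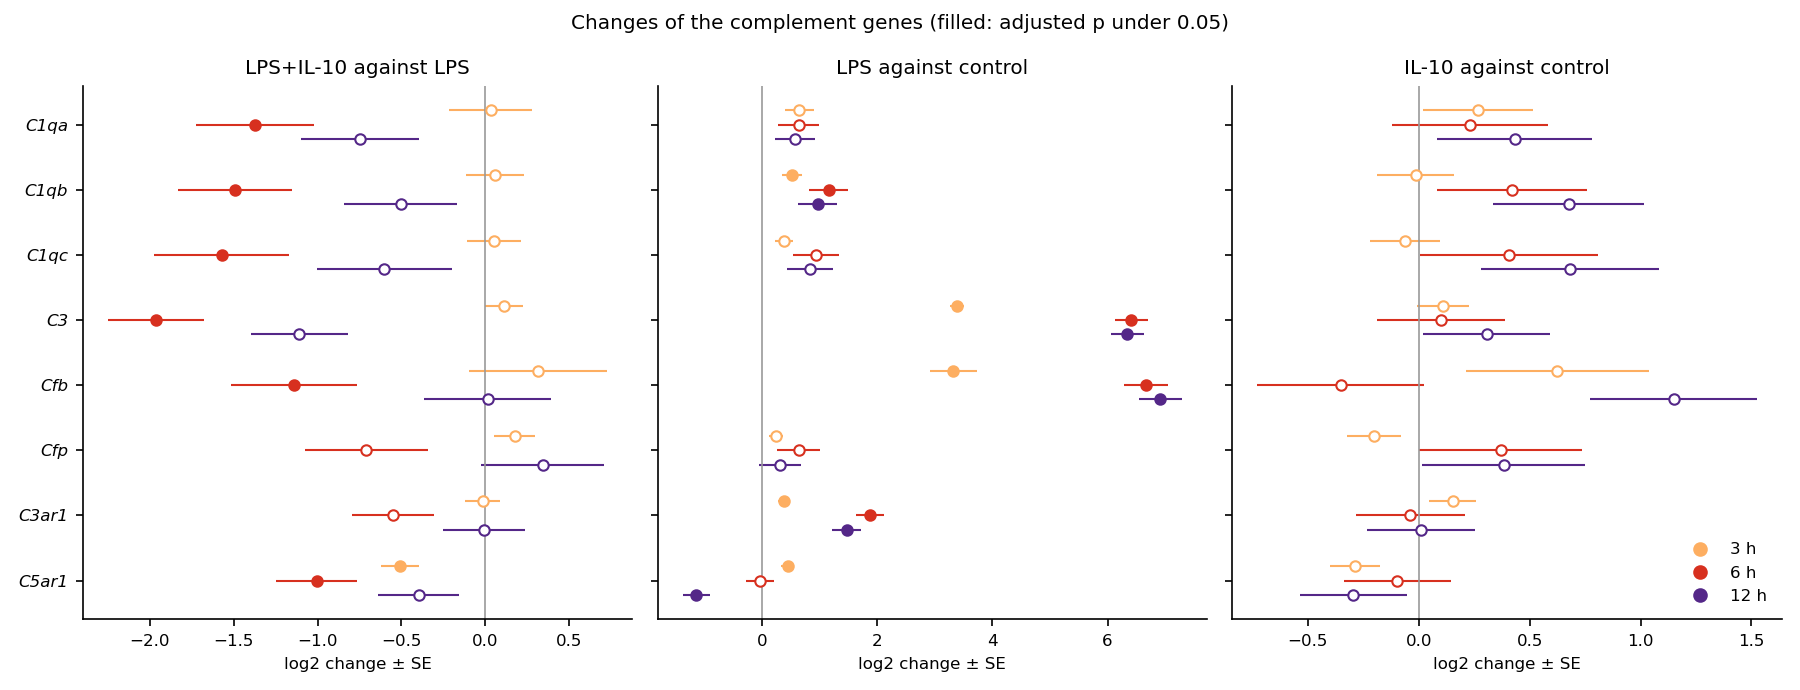
Log2 change with its SE for LPS with IL-10 against LPS, LPS against control and IL-10 against control at 3, 6 and 12 h, 2 libraries per group, filled where the adjusted p was under 0.05. The left panel shows the 6 filled points of 6 h, between -1.96 for C3 and -1.01 for C5ar1, and the right panel has no filled point.

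C3, the central component, is transcribed from the minus strand of chromosome 17 (ENSMUSG00000024164, chr17:57203970-57228136, GRCm38, 42 exons). Its promoter is shown because C3 had the largest fall of the 8 genes when IL-10 was added to LPS for 6 h. RefSeq (GRCm38.p6) gave 250 bases before and 50 after the start for 6 of the 8 genes; Cfb and C1qa were not among them. The C3 window, chr17:57228087-57228386 on the minus strand, is printed 5′ to 3′ with capitals on its match to the C/EBP motif TTGCNNAA, which begins 45 bases before the start (position -45).
C3: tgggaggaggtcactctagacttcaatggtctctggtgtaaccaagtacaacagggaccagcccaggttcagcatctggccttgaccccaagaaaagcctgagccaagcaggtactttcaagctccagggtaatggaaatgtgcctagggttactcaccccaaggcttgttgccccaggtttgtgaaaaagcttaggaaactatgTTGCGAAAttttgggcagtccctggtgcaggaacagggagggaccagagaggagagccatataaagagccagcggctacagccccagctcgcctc

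C/EBP factors are transcription activators of acute-phase and myeloid genes. The motif, searched on both strands, was in 10.8% of 32851 promoters of this length and in 1 of the 6 complement promoters. None of the 6 held the kappa-B motif (GGGA, any base, TT, any base, CC; in 1.2% of all promoters), the interferon response motif (GAAA, any 2 bases, GAAA; 3.44%), the IRF-ETS composite (GGAA, any 2 bases, GAAA; 2.72%) or the GAS motif TTCNNNGAA (8.3%).

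At 3 h, C3 read 24056 and 22381 with both agents, 21490 and 21452 with LPS, 2165 and 2264 with IL-10 alone and 1816 and 2322 in control. Every library with LPS stood far above every library without it, and those with IL-10 and LPS stood slightly above those with LPS alone. The change with LPS was 3.39 ± 0.12 (adjusted p = 1.6e-08, limma), a 10.5-fold difference on that scale, and added IL-10 changed it by 0.11 (95% interval -0.15 to 0.37), which was not called.

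At 6 h, C3 read 30766 and 21875 with both agents, 103873 and 98653 with LPS, 1231 and 1322 with IL-10 alone, and 1337 and 1060 in the shared control. The LPS libraries with IL-10 lay wholly below those without it and wholly above the control. LPS changed C3 by 6.41 ± 0.29 (adjusted p = 3.7e-07, limma), and IL-10 with LPS changed it by -1.96 ± 0.29 against LPS alone (adjusted p = 0.0013, limma). This fall was called under 25 of 25 alternative settings, between -2.21 and -1.35.

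At 12 h, C3 read 53512 and 37466 with both agents, 87965 and 105934 with LPS, and 1949 and 1110 with IL-10 alone. The 2 groups with LPS again did not overlap. LPS changed it by 6.34 ± 0.29 (adjusted p = 4.4e-07, limma), while added IL-10 gave -1.11 ± 0.29, which missed the threshold (adjusted p = 0.053, limma) and whose adjusted p ranged from 0.0084 to 0.43 over 25 alternatives, with 9 of them calling it. The interaction, that is the IL-10 effect with LPS minus that without it, was called at 6 h, at -2.06 ± 0.41 (adjusted p = 0.017, limma; called in 18 of 25 alternatives), and at 12 h it was -1.41 ± 0.41, not called (adjusted p = 0.21, limma).

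Some marker genes of other cell types moved in the same direction as C3. The summed fibroblast list was 64.1 to 72.6 with both agents at 6 h, 134 to 191 with LPS and 2.81 to 3.10 in control, carried by Dcn and Lum, while Col1a1, Col1a2 and Pdgfra never exceeded 2.41 normalized reads. The endothelial list was 620 to 695 with both agents, 4181 to 4528 with LPS and 202 to 229 in control. It was mostly Kdr, which reached 4471, with Cdh5 at 71.6 or less and Tek at 2.50 or less. The dendritic cell list was 87.4 to 104 with both agents, 181 to 193 with LPS and 18.7 to 30.4 in control. Of its 5 genes 3 reached the filter level, but only Xcr1, at up to 182.1, exceeded 12.04 in the 6 h and 12 h groups and their control. The macrophage list itself summed to 378690 to 409548 with both agents at 6 h, 534620 to 578507 with LPS and 362958 to 437179 in control. Most of that sum was Lyz2, which ran from 198900 to 362400 in the 6 h and 12 h groups and their control. The part of these genes in the results was not tested, and in bulk RNA fewer cells of a type and less RNA per cell cannot be told apart.

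Cfb, the alternative pathway protease, lies on the minus strand of chromosome 17 (ENSMUSG00000090231, chr17:34856374-34862518, GRCm38, 17 exons). It was barely detected without LPS, so recovered reads are given beside normalized reads. Of its 2825 exonic bases, 79.5% are also annotated in the same-strand gene Gm20547. Gm20547 had 0 reads in all 22 libraries, and the way the counting assigned reads in the shared bases is not given in the sources used here.

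At 3 h, Cfb read 45.2 and 51.8 with both agents (38 and 40 reads), 40.96 and 36.5 with LPS (33 each), 5.29 and 4.95 with IL-10 alone (7 each), and 1.67 and 4.91 in control (1 and 7). All libraries with LPS were above all without it. LPS changed Cfb by 3.32 ± 0.41 (adjusted p = 0.00011, limma), and the pooled reads gave a ratio of 9.69 (95% counting interval 4.64 to 23.4). Intervals of this kind cover counting error only.

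At 6 h, Cfb read 164.9 and 81.7 with both agents (198 and 72 reads), 278 and 238 with LPS (128 and 146), 0.815 and 1.18 with IL-10 alone (1 and 2), and 1.87 and 1.24 in control (2 each). The LPS libraries were highest, those with LPS and IL-10 intermediate, and the others near 1 read. The ratio of LPS to control was 172 (95% counting interval 66.4 to 636; log2 change 6.67 ± 0.38, adjusted p = 7.1e-07, limma).

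With added IL-10, Cfb was 0.514 times its level with LPS alone at 6 h (95% counting interval 0.433 to 0.610). The log2 change was -1.14 ± 0.38 (adjusted p = 0.049, limma), and only 9 of 25 alternatives kept the call, with adjusted p between 0.020 and 0.38. Without the second library of LPS and IL-10, which held the lower value, the change was -0.64.

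At 12 h, Cfb read 307 and 310.2 with both agents (316 and 262 reads), 295 and 317 with LPS (245 and 227), and 6.39 and 3.28 with IL-10 alone (10 and 5). The 2 groups with LPS overlapped, and their ratio was 0.993 (95% counting interval 0.878 to 1.12; log2 change 0.01, 95% interval -0.82 to 0.84). LPS against control was 209 (95% counting interval 81.1 to 770.2; log2 change 6.92 ± 0.38, adjusted p = 7.5e-07, limma).

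In cells with LPS and IL-10, Cfb was higher at 12 h than at 6 h by 1.40 ± 0.38 (adjusted p = 0.028, limma; called in 21 of 25 alternatives, 0.90 to 1.91), the single gene of the 8 called in that comparison, where 9.28% of all genes were called higher and 9.57% lower. The call was lost without the second 6 h library or either 12 h library of that group, and at 0.90 the smallest value came without the second 6 h library. The difference between the IL-10 effects at 12 h and 6 h, tested directly, was called for none of the 8 by limma, and 0 had an unadjusted p under 0.05. In that test limma called 1.15% of all genes. By edgeR and DESeq2 the count of the 8 was 0 as well.

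With IL-10 alone at 12 h, Cfb had 15 reads against 4 in control, a ratio of 3.29 (95% counting interval 1.05 to 13.6). The change of 1.15 ± 0.38 was not called (adjusted p = 0.20, limma). At 6 h there were 3 reads with IL-10 alone and 4 in control, a ratio of 0.696 (95% counting interval 0.102 to 4.11).

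Cfp encodes properdin, the stabiliser of the alternative pathway convertase, on the minus strand of the X chromosome (ENSMUSG00000001128, chrX:20925454-20931555, GRCm38, 9 exons). It read 5078 and 5165 with both agents at 3 h, 4354 and 4719 with LPS, 3001 and 3726 with IL-10 alone and 3548 and 4170 in control. The 3 h values with LPS and IL-10 were highest and those with IL-10 alone lowest, though the last overlapped the control. At 6 h it read 9532 and 5303 with both agents, 12995 and 10411 with LPS, 8876 and 10556 with IL-10 alone, and 11362 and 4940 in control. The 2 control libraries lay far apart and overlapped every other group.

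At 12 h, Cfp read 10442 and 13210 with both agents, 9183 and 9356 with LPS and 8915 and 10701 with IL-10, with the groups close together. No comparison called it as first fitted, with the deposited scaling, all libraries of a table and no replicate block. LPS gave 0.24 ± 0.12 at 3 h, 0.63 ± 0.37 at 6 h and 0.31 ± 0.37 at 12 h, where limma gave adjusted p = 0.13, 0.16 and 0.52. Under equal library totals the 3 h change was -0.35 (adjusted p = 0.043, limma), which is above the median gene of that scaling. It was called higher at 3 h with the replicate block (0.24, adjusted p = 0.039, limma), with the GC trend removed (0.28, adjusted p = 0.0028, limma) and without the second control library (0.35, adjusted p = 0.011, limma). LPS with IL-10 against LPS at 3 h was called higher when only the groups compared were fitted (0.18, adjusted p = 0.013, limma). LPS at 12 h against 6 h was called lower with the GC trend removed (-0.47, adjusted p = 0.025, limma). LPS with IL-10 against LPS at 6 h was -0.71 ± 0.37, with a 95% interval of -1.52 to 0.10.

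The 3 C1q chain genes lie side by side within 18.7 kb of chromosome 4, all on the minus strand with 3 exons each. C1qb (ENSMUSG00000036905) is at chr4:136880129-136886187, C1qc (ENSMUSG00000036896) at chr4:136889804-136893065 and C1qa (ENSMUSG00000036887) at chr4:136895917-136898803 (GRCm38). The A, B and C chains are assembled into 1 protein. The promoters of C1qb (chr4:136886151-136886450, minus strand) and C1qc (chr4:136892865-136893164, minus strand) are shown because these genes moved together. Capitals mark the ETS motif AGGAAG, or CTTCCT where it lies on the other strand, the core bound by ETS-family factors such as PU.1 (Spi1), a regulator of macrophage genes.
C1qb: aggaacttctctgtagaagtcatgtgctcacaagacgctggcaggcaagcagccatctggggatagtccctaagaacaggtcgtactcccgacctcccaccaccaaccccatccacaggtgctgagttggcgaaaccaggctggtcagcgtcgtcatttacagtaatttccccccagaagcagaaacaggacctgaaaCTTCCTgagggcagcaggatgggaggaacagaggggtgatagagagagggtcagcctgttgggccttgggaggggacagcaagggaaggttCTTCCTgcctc
C1qc: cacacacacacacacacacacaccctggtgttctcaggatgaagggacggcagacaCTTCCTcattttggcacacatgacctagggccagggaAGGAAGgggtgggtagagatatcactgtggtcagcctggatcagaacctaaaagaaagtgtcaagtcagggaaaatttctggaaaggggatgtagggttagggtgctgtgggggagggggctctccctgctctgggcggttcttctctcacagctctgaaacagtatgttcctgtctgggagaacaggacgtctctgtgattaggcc

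The matches begin at positions -52 and 40 in C1qb and at -194 and -157 in C1qc. There is no position 0, as positive positions begin with the start base and negative positions with the base before it. The motif was in 35.4% of all promoters searched and in 4 of the 6 complement promoters.

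At 3 h, C1qb read 18955 and 19136 with both agents, 17606 and 19004 with LPS, 11400 and 14095 with IL-10 alone, and 10455 and 15688 in control. The 2 groups with LPS lay above the 2 without it and overlapped each other. C1qb was called higher with LPS (0.51 ± 0.17, adjusted p = 0.032, limma), while C1qa (0.65 ± 0.25, adjusted p = 0.051, limma) and C1qc (0.39 ± 0.16, adjusted p = 0.065, limma) missed the threshold. Added IL-10 changed the 3 chains by 0.03 to 0.06, and none was called. The C1qb call held in 9 of 19 alternatives, and its sign turned under equal library totals (-0.08, against a median gene of -0.56) and under quantile normalization (-0.34, against -0.12).

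At 6 h, C1qb read 17283 and 9398 with both agents, 40272 and 31898 with LPS, 19777 and 23447 with IL-10 alone, and 22376 and 11583 in control. The 6 h LPS libraries were, with 1 LPS library of 12 h, the highest of the table, and those with added IL-10 fell within or below the control range. The change with added IL-10 was -1.49 ± 0.34 (adjusted p = 0.011, limma), and for LPS against control it was 1.15 ± 0.34 (adjusted p = 0.012, limma), with -0.52 under quantile normalization.

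C1qa read 3097 and 2006 with both agents at 6 h, 7171 and 5805 with LPS, 4440 and 5336 with IL-10 alone, and 6462 and 2668 in control. C1qc read 6856 and 3454 with both agents, 16885 and 12394 with LPS, 9409 and 10756 with IL-10 alone, and 12008 and 4796 in control. For both genes the groups with LPS did not overlap, and the control pair was the widest of the table. Added IL-10 changed C1qa by -1.37 ± 0.35 and C1qc by -1.57 ± 0.40 (adjusted p = 0.019 each, limma). LPS against control was 0.64 ± 0.35 for C1qa and 0.93 ± 0.40 for C1qc, neither called.

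The interaction at 6 h was called for C1qb (-1.91 ± 0.48, adjusted p = 0.041, limma) and not for C1qa (-1.60 ± 0.50, adjusted p = 0.075, limma) or C1qc (-1.98 ± 0.57, adjusted p = 0.061, limma). The C1qb call held in 10 of 25 alternatives. Of the 8 genes, C3 and C1qb were the 2 called in this test, both lower, where 2.26% of all genes were called lower and 4.46% higher. At 3 h and 12 h limma called 0 of 8, with 2.79% and 0.382% of all genes called. The counts at an unadjusted p under 0.05 were 0 and 4, those of edgeR 0 and 0, and those of DESeq2 0 and 1. The shares of all genes given above are those of the adjusted p in limma. They are no background for these other counts, for which no share is given.

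At 12 h, C1qb read 22627 and 21666 with both agents, 29160 and 33878 with LPS and 23462 and 28170 with IL-10 alone. C1qa read 3635 and 3714 with both agents, 6195 and 6120 with LPS and 4933 and 6360 with IL-10 alone. C1qc read 8598 and 9153 with both agents, 13197 and 13741 with LPS and 10904 and 13559 with IL-10 alone. All 3 chains were lower in both libraries with LPS and IL-10 than in both with LPS, an order that 25.5% of all genes shared, by -0.74 for C1qa, -0.51 for C1qb and -0.60 for C1qc. None of these was called (adjusted p = 0.27, 0.47 and 0.46, limma). LPS against control was called for C1qb alone (0.97 ± 0.34, adjusted p = 0.036, limma; 14 of 25 alternatives, with -0.22 under quantile normalization).

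In several groups the C1q genes and Cfp shared a difference between the libraries of a group that C3ar1 did not share. Among them were the shared control and both 6 h groups with LPS. On the log2 scale the first control library exceeded the second by 0.95 to 1.32 for the 3 chains and Cfp, and was below it by -0.537 for C3ar1. The same contrast was 0.626 to 0.989 against -0.185 for LPS with IL-10 at 6 h and 0.305 to 0.446 against -0.114 for LPS at 6 h. At 12 h this contrast was not seen in every group. It was -0.339 to 0.0626 against 0.211 for LPS with IL-10 and -0.216 to 0.0177 against -0.539 for LPS. With IL-10 alone the signs were the other way round, at -0.265 to -0.193 against 0.216 at 6 h and -0.366 to -0.263 against 0.177 at 12 h. The 3 h control gave -0.985 to -0.233 against 0.247, and IL-10 at 3 h -0.312 to -0.188 against 0.13. For LPS at 3 h it was -0.239 to -0.11 against 0.0345, and for both agents -0.0246 to 0.0348 against 0.0292. The transcripts of the C1q genes and Cfp hold 56.3% to 59.5% GC, and that of C3ar1 43.0%.

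Across all genes with a GC value, the replicate difference and GC content had a Spearman correlation of 0.804 in the shared control. It was 0.705 for LPS with IL-10 at 6 h and 0.547 for LPS at 6 h. These values describe 12688 genes that share the same 2 libraries. Other groups of that table ranged from -0.561 (IL-10 alone at 12 h) to 0.208 (LPS at 12 h). At 3 h the correlation was -0.62 in control, -0.616 with IL-10, -0.403 with LPS and -0.0417 with both agents. With the GC trend of each library removed, C1qa (0.98), C1qc (1.16) and Cfp (0.81) were called higher for LPS against control at 6 h. As first fitted these 3 were not called. The 3 chains were called lower with added IL-10 at 6 h in that fit too, by -0.86 for C1qa, -1.05 for C1qb and -1.12 for C1qc. As given above, other scalings did not keep all of these calls. Without the first shared control library, LPS against control at 6 h was 1.27 for C1qa, 1.59 for C1qc and 1.24 for Cfp. At 12 h it was 1.21, 1.49 and 0.91 for the same genes. These were the highest values with 1 library left out. The lowest were -0.002 for C1qa, 0.27 for C1qc and 0.03 for Cfp at 6 h. At 12 h the lowest were -0.07, 0.17 and -0.29, so the size of these changes rests on which libraries are kept.

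**Figure D3:**
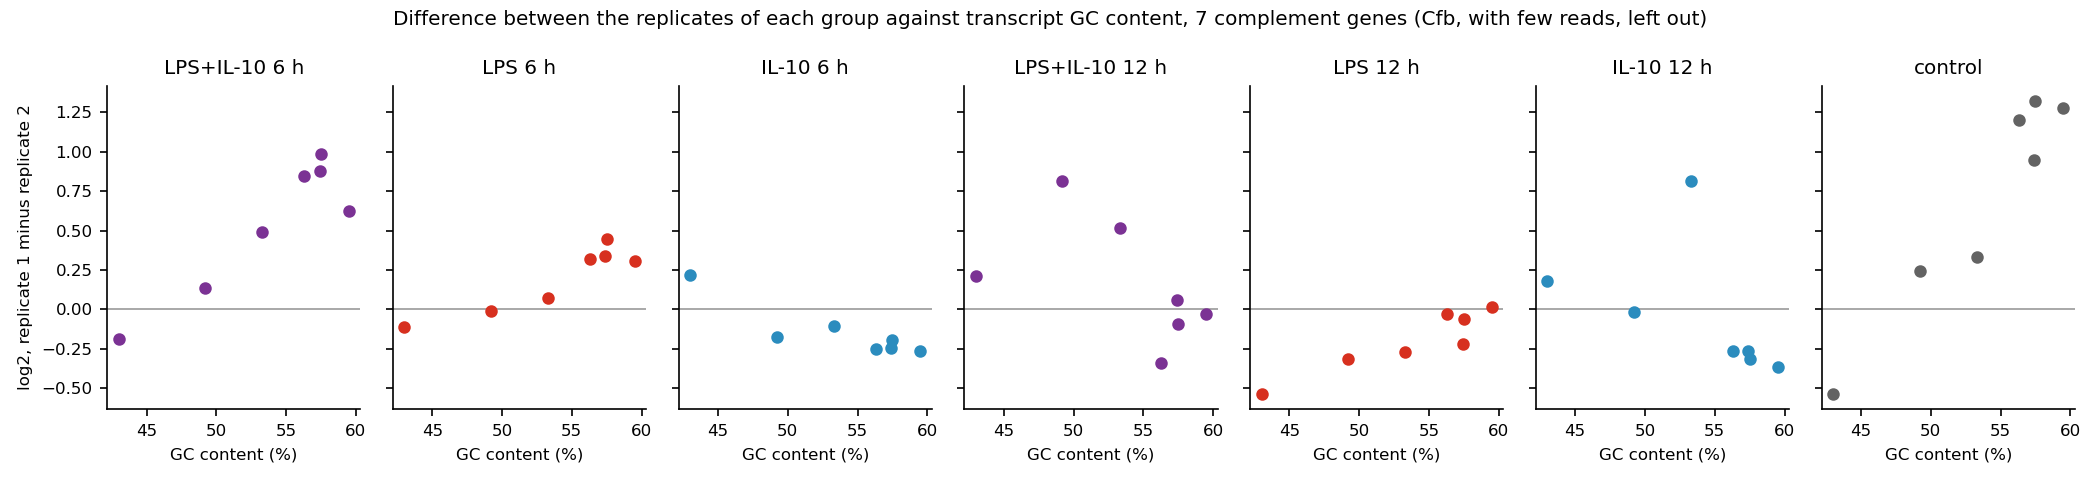
Log2 difference between replicate 1 and replicate 2 (vertical axis) against the GC content of the longest transcript (horizontal axis, percent) for 7 complement genes in each group of the 6 h and 12 h table; each point is 1 gene and Cfb is left out for its few reads. In the control, C3ar1 at 43.0% GC lies at -0.537 and the C1q genes and Cfp lie at 0.95 to 1.32.

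Within C1q, the B chain transcript was most abundant per kilobase of exon. C1qb held 62.7% to 65.8% of the summed level of the 3 chains per kilobase in the 3 h libraries and 62.3% to 72.4% in the others. C1qa held 12.2% to 18.8% and C1qc 14.5% to 18.9% in the second table. With the longest transcript in place of all exons, which matters for C1qc (1203 against 1931 bases), C1qb still held 55.9% to 66.2% there. C1qc was above C1qa in 12 of 14 libraries of the second table over all exons and in 14 of 14 with the longest transcript, where it held 21.4% to 27.2%. At 3 h it was above in 3 of 8 libraries over all exons and in 8 of 8 with the longest transcript.

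C3ar1, the receptor for C3a, lies on the minus strand of chromosome 6 (ENSMUSG00000040552, chr6:122847138-122856161, GRCm38, 2 exons), and C5ar1, the main receptor for C5a, on the minus strand of chromosome 7 (ENSMUSG00000049130, chr7:16246743-16259540, GRCm38, 3 exons). Their promoters, C3ar1 at chr6:122856108-122856407 and C5ar1 at chr7:16259289-16259588, are set side by side because the receptors moved apart after 3 h. Capitals again mark the ETS motif.
C3ar1: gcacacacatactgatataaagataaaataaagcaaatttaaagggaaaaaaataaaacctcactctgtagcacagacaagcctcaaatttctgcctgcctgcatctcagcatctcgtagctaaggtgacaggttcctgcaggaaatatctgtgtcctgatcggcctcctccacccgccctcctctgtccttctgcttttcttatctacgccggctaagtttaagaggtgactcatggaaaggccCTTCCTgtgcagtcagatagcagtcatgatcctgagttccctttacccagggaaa
C5ar1: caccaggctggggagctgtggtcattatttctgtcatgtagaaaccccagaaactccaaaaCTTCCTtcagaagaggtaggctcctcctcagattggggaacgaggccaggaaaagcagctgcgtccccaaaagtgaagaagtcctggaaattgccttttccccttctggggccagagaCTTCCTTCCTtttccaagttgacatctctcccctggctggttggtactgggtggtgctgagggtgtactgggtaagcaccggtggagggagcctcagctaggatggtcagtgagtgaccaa

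The C3ar1 window held 1 match, at position -5, and the C5ar1 window 3, at -189, -71 and -67, of which the last 2 overlap.

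At 3 h, C3ar1 read 26559 and 26027 with both agents, 26891 and 26256 with LPS, 23741 and 21701 with IL-10 alone, and 22238 and 18738 in control. The groups with LPS lay just above those without it. The change of 0.38 ± 0.11 with LPS was called (adjusted p = 0.013, limma). It was -0.21 under equal library totals and -0.47 under quantile normalization (adjusted p = 6e-04, limma), so its direction at 3 h rests on the scaling.

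At 6 h, C3ar1 read 34093 and 38747 with both agents, 51166 and 55365 with LPS, 15187 and 13072 with IL-10 alone, and 12005 and 17424 in control. The 3 levels were distinct, with LPS highest and the control and IL-10 groups overlapping at the bottom. LPS changed it by 1.88 ± 0.24 (adjusted p = 7.9e-05, limma; called in 24 of 25 alternatives, and at 0.26 not under quantile normalization). The change with added IL-10 was -0.55 ± 0.24 (95% interval -1.09 to -0.01) and was not called (adjusted p = 0.12, limma).

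At 12 h, C3ar1 read 42773 and 36965 with both agents, 33182 and 48211 with LPS and 15478 and 13689 with IL-10 alone. The libraries with LPS and IL-10 fell between the 2 LPS libraries. LPS changed it by 1.47 ± 0.24 (adjusted p = 0.00078, limma), and added IL-10 by -0.01 (95% interval -0.55 to 0.53). Under quantile normalization the 12 h change with LPS was 0.32 and not called (adjusted p = 0.14, limma).

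C5ar1 took another course. At 3 h it read 13305 and 12127 with both agents, 17071 and 19130 with LPS, 10922 and 10761 with IL-10 alone, and 14575 and 12029 in control. The LPS libraries stood above all others, and added IL-10 brought the values into the control range. LPS changed it by 0.45 ± 0.11 (adjusted p = 0.0082, limma), with -0.14 under equal library totals and -0.41 under quantile normalization (adjusted p = 0.0072, limma). Added IL-10 changed it by -0.51 ± 0.11 against LPS (adjusted p = 0.020, limma). That call held in 15 of 19 alternatives and was lost without any 1 of the 4 libraries compared.

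At 6 h, C5ar1 read 6477 and 5897 with both agents, 12356 and 12464 with LPS, 11155 and 12608 with IL-10 alone, and 13799 and 11659 in control. Only the group with both agents stood apart, below all others. Added IL-10 changed it by -1.01 ± 0.24 (adjusted p = 0.014, limma), and LPS against control was -0.03 (95% interval -0.56 to 0.50). Under quantile normalization the change with added IL-10 was -0.64 and not called (adjusted p = 0.057, limma). With 1 library left out that change ran from -1.07 to -0.94. LPS against control at 6 h was called lower under equal library totals (-1.17, where the median gene was -1.16) and quantile normalization (-1.48).

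At 12 h, C5ar1 read 5786 and 3296 with both agents, 5154 and 6424 with LPS, and 10290 and 10385 with IL-10 alone. Both groups with LPS, which overlapped each other, lay below the rest. LPS changed it by -1.14 ± 0.24 (adjusted p = 0.0030, limma; called in 25 of 25 alternatives), and added IL-10 by -0.40 ± 0.24 (adjusted p = 0.41, limma).

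Between 6 h and 12 h of LPS, C5ar1 was the single gene of the 8 called, at -1.11 ± 0.24 (adjusted p = 0.013, limma), where 4.67% of all genes were called lower and 11.1% higher. Of those calls 70.4% were higher, against 92.7% with equal library totals, 82.6% in edgeR and 54.2% with the GC trend removed. The call held in 21 of 25 alternatives, -1.27 to -0.54, and was lost without either 6 h LPS library, without the first 12 h LPS library and under quantile normalization. For IL-10 alone, limma called 0 of 8 between the times. There limma called 0.0078% of all genes by the adjusted p. Of the 8, 1 had an unadjusted p under 0.05, and edgeR and DESeq2 called 0. The ratio of C3ar1 to C5ar1 normalized reads, which moves with both genes and is not per length, ran from 1.37 to 2.17 in the 3 h libraries and from 0.87 to 11.2 in the others.

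**Figure D4:**
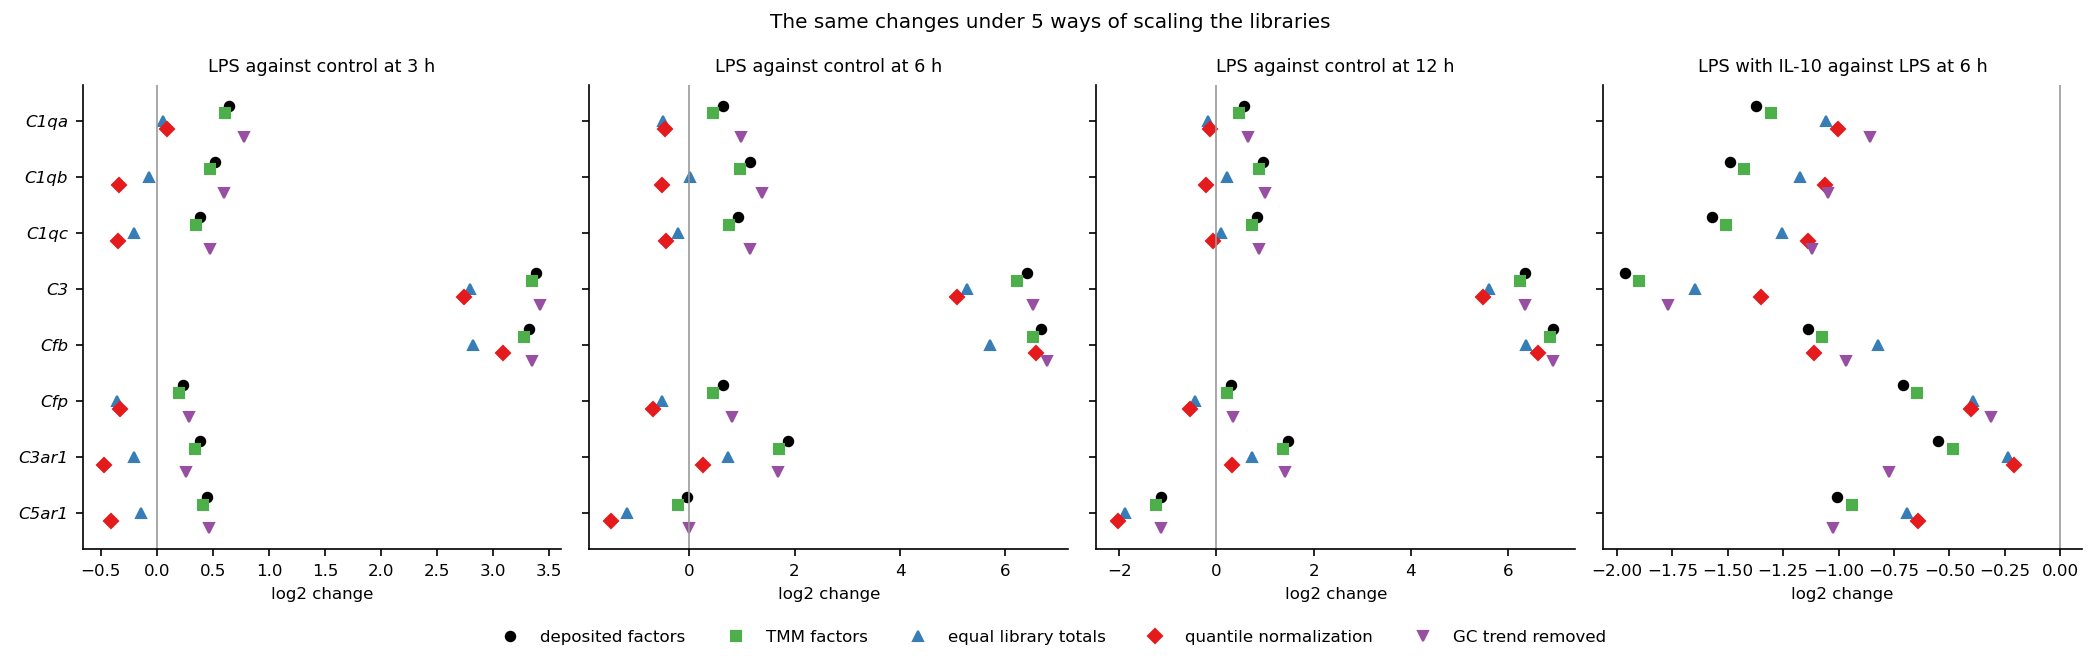
Log2 change of each complement gene for LPS against control at 3, 6 and 12 h and for LPS with IL-10 against LPS at 6 h, under the deposited factors and 4 other ways of scaling (markers), 2 libraries per group. C3 and Cfb stay above 2.7 in the 3 LPS panels under all 5, C1qb, C1qc, Cfp, C3ar1 and C5ar1 fall on both sides of 0 at 3 h, and all 8 genes lie below 0 in the last panel.

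Per kilobase of exon, the order of the genes differed between LPS and control. With LPS at 6 h the mean ± SD (n = 2) of normalized reads per kilobase was 33166 ± 5442 for C1qb, 19689 ± 718 for C3, 12373 ± 690 for C3ar1, 7581 ± 1645 for C1qc, 6741 ± 1053 for Cfp, 6239 ± 928.5 for C1qa, 4829 ± 29.8 for C5ar1 and 91.3 ± 9.85 for Cfb. In the control of that table it was 15606 ± 7014 for C1qb, 4953 ± 589 for C5ar1, 4695 ± 2616 for Cfp, 4389 ± 2580 for C1qa, 4351 ± 2641 for C1qc, 3418 ± 890 for C3ar1, 233 ± 38.1 for C3 and 0.551 ± 0.159 for Cfb. C3 stood second with LPS and next to last in control. In control the SDs of Cfp, C1qa and C1qc overlapped each other and those of C5ar1 and C3ar1, so their places are not resolved, while C5ar1 and C3ar1 did not overlap.

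The patterns over the 22 libraries, each gene centred on the mean of its table, fell into 3 kinds. C3, Cfb and C3ar1 ran together (Pearson r = 0.980 for C3 with Cfb, 0.922 for C3 with C3ar1 and 0.918 for Cfb with C3ar1). The C1q chains ran together (0.918 to 0.969), with Cfp nearest to them (0.709 to 0.816). C5ar1 was not close to any, between -0.524 with Cfb and 0.348 with C1qa. These are descriptions over 22 libraries that share treatment and, within a table, scaling. The libraries also differ along GC content, as given above, and the part of that difference in these correlations and in the closest genes was not tested.

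Of 10081 genes searched, the closest to C3 were Irf7 (r = 0.994), a transcription factor of the interferon response, Perm1 (0.993) and Gadd45b (0.993). Irf7 was also closest to Cfb (0.992), before Il18bp, an IL-18 inhibitor (0.990), and Isg20, an interferon-induced exonuclease (0.990). For C3ar1 they were Coa5 (0.990), Fbxo38 (0.983) and Atp1b3 (0.982). The closest to the C1q chains were the ribosomal protein genes Rps14 (0.944) and Rpl37a (0.943) with Spg7 (0.938) for C1qa, Cox4i1 (0.964) and Cst3 (0.948) for C1qb, and Cyba (0.950), Nr1h2 (0.947) and Gnb2 (0.946) for C1qc. Cfp was closest to Asna1 (0.963), Gapdh (0.963) and Dctn2 (0.959). C5ar1 was closest to Iqgap3 (0.932), Nop10 (0.927) and Actl6a (0.918).

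A list of 45 further complement genes was examined, of which 44 were found and 15 at 3 h and 22 at 6 h and 12 h were tested. With LPS, 4 of them were called higher and 1 lower at 3 h, 9 and 5 at 6 h, and 8 and 7 at 12 h. Of all genes, LPS had 27.6% called higher and 25.9% lower at 3 h. The shares were 28.4% and 31.3% at 6 h, and 23.7% and 23.8% at 12 h. Serping1, tested at 6 h and 12 h, reached the filter level only in libraries with LPS. The list's median change was 0.20, 0.29 and 0.03 at 3, 6 and 12 h, beside 0.03, -0.04 and -0.02 over all genes tested. With IL-10 added to LPS the counts were 2 higher and 1 lower at 3 h, 1 and 4 at 6 h, and 1 and 1 at 12 h, with medians of -0.07, -0.08 and 0.10 beside 0.01, 0.01 and -0.06. Of all genes, added IL-10 had 4.68% called higher and 4.92% lower at 3 h, and 13.7% and 10% at 6 h. At 12 h it was 4.92% in either direction. With IL-10 alone, limma called 0 of the list at 3 h and 6 h and 1 higher and 1 lower at 12 h. The shares of all genes called with IL-10 alone were 1.64%, 0.0624% and 1.56% at 3, 6 and 12 h.

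C1ra, a C1r protease gene of the C1 complex that C1q activates, read 1124 and 881 with both agents at 6 h, 844 and 928 with LPS, 135 and 139 with IL-10 alone, and 111 and 115 in control. It rose with LPS by 2.04 at 3 h, 2.96 at 6 h and 2.41 at 12 h. Added IL-10 raised it at 3 h by 0.55 (adjusted p = 0.031, limma; called in 12 of 19 alternatives). C5ar2, the second C5a receptor, read 48.7 and 46.6 with both agents at 3 h, 69.5 and 80.8 with LPS, 245 and 258 with IL-10 alone, and 289.8 and 239.6 in control. With LPS it changed by -1.80, -2.03 and -2.26 at 3, 6 and 12 h, and added IL-10 changed it further at 3 h by -0.64 (called in 10 of 19 alternatives).

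Cd55, an inhibitor that speeds decay of the C3 convertases, read 49.1 and 55.6 with both agents at 6 h, 219 and 258 with LPS, 14.7 and 12.4 with IL-10 alone, and 11.2 and 24.8 in control. The groups with LPS did not overlap. LPS raised it by 3.75 at 6 h and 12 h, and added IL-10 changed it by -2.16 at 6 h (adjusted p = 0.019, limma) and -2.29 at 12 h (adjusted p = 0.040, limma), where 9 of 25 alternatives kept the call. Cd93, once taken for a C1q receptor, went the other way. At 6 h it read 7478 and 9385 with both agents, 4246 and 5386 with LPS, 11741 and 11940 with IL-10 alone, and 10521 and 13968 in control. With LPS it changed by -1.34 at 6 h and -1.50 at 12 h, and it was higher with added IL-10 by 0.52 at 3 h and 0.81 at 6 h. Fcna, a ficolin of the lectin pathway, read 114 and 89.6 with both agents and 210.3 and 204 with LPS at 6 h, a change of -1.03 (adjusted p = 0.015, limma).

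Itgam, the alpha chain of complement receptor 3, read 35124 and 40063 with both agents at 12 h, 19069 and 22463 with LPS, 23290 and 21253 with IL-10 alone, and 16956 and 20311 in control. It was higher with added IL-10 by 0.86 (adjusted p = 0.026, limma; called in 17 of 25 alternatives). With LPS at 3 h, Itgam (0.32), Itgax (0.22) and Cr1l (0.45) were called higher, but the sign of Itgam and Itgax turned in 2 of 19 alternatives and that of Cr1l in 1. Colec12, a collectin scavenger receptor, changed with LPS by -1.13 at 6 h and -1.39 at 12 h. Itgax, the alpha chain of complement receptor 4, was lower with IL-10 alone at 12 h, with a change of -0.94 (adjusted p = 0.022, limma; 19 of 25 alternatives). C1qbp, a C1q-binding protein of mitochondria, was lower at 12 h than at 6 h with both agents (-1.29, adjusted p = 0.0083, limma).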

How the data were processed

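RNA sequencing of 22 libraries was deposited as 2 tables of 38293 genes. The values are a signal per gene that the authors made by dividing read counts by a size factor per library, as the files themselves show: 100.0% of values were whole multiples of 1 read within 0.01 reads, so reads were recovered. Per the submitters' processing notes, TopHat2, DESeq2 and GRCm38 were used, without versions; for the counting tool, annotation and strand setting the sources used here give nothing. Coordinates, exon lengths and GC content came from GENCODE (GRCm38).

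Each table was tested alone with limma 3.58.1 (R 4.3.3, eBayes with trend) on log2 of the value plus 1, two-sided, for genes that reached 10 normalized reads in 2 or more libraries (12338 at 3 h, 12817 in the other table). All groups of a table shared 1 fit, so a pair's SE also carries the spread of the others, and low values understate a change. edgeR 4.0.16 and DESeq2 1.42.0 on recovered reads were among the alternatives, with other pseudocounts, filters, scalings, a fit of only the groups compared, a loess GC correction, a replicate block and each library left out. The scripts were tested on simulated data.

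The 8 genes, the further complement genes, the marker lists and the motifs were chosen with earlier results of these data known. All 8 genes are named in every comparison. Further complement genes are named where they reached a mean of 100 normalized reads and had among the 5 smallest p for LPS against control or for IL-10 added to LPS, and other genes by the 3 highest correlations with each member. The genes Itgax for IL-10 alone, C4b and Serping1 were named after their values were seen. Some genes that these rules name are not reported here.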

Additional observations from a re-analysis of the deposited data

Results flagged for a closer look

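Of the values named here, each called by limma, 2 are interactions and 2 are differences in level between times. The interaction of LPS and IL-10 at 6 h, the IL-10 effect with LPS minus that without, was -2.06 for C3 and -1.91 for C1qb on the log2 scale. C3 had lower values in both libraries with both agents than in both with LPS alone, while IL-10 alone at 6 h read 1231 and 1322, inside the control range of 1060 to 1337. C1qb read 19777 and 23447 with IL-10 alone, against 22376 and 11583 in control, and that control pair was far apart.

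C5ar1 with LPS differed between 12 h and 6 h by -1.11, with both 12 h libraries (5154 and 6424) below both 6 h libraries (12356 and 12464). Cfb with both agents differed between 12 h and 6 h by 1.40, with 307 and 310.2 normalized reads at 12 h and 164.9 and 81.7 at 6 h. The difference in IL-10 effect between the times was not called for Cfb (1.15, adjusted p = 0.28, limma). The causes of these differences were not tested.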

How the results depend on the processing

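Of 3004 values of the 8 genes under alternatives, 2833 kept their side of the threshold, of which 2710 kept their sign and 123 changed sign without a call on either side, 68 passed it only under the alternative, 94 passed it only as first fitted and 9 changed sign with a call on at least 1 side. The 9 were LPS against control at 3 h with equal library totals for C1qb (-0.075), Cfp (-0.35), C3ar1 (-0.21) and C5ar1 (-0.14) and with quantile normalization for C1qb (-0.34), C3ar1 (-0.47) and C5ar1 (-0.41), and C1qb with quantile normalization at 6 h (-0.52) and 12 h (-0.22). The number of the 8 genes called is given here without the share of all genes called under each alternative. It moved by more than 1.5 times as follows. For LPS against control at 3 h it was 5, and 3 with equal totals (2 higher, 1 lower) or only the groups compared and 8 with the GC trend removed or the replicate block. At 6 h it was 4, and 7 with the GC trend removed; at 12 h it was 5, and 3 with quantile normalization. For LPS with IL-10 against LPS at 3 h it was 1, and 2 with only the groups compared. At 6 h it was 6, and 3 with equal totals and 2 with quantile normalization. At 12 h it was 0, and 1 with DESeq2, pseudocount 5 or the replicate block and 3 with the GC trend removed. For the interaction at 6 h it was 2, and 1 with edgeR, no filter, equal totals or only the groups compared, 0 with quantile normalization, 4 with DESeq2 and 5 with the GC trend removed. At 12 h it was 0, and 1 with DESeq2 and 2 with the GC trend removed. Between 12 h and 6 h it was 1 for LPS, and 0 with quantile normalization and 2 with the GC trend removed. For LPS with IL-10 it was 1, and 0 with no filter and 2 with DESeq2, equal totals, quantile normalization or the GC trend removed. For the difference in IL-10 effect between the times it was 0, and 1 with the GC trend removed.

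Leaving out 1 library at a time gave 2 to 8 genes called for LPS at 3 h, 3 to 7 at 6 h and 4 to 8 at 12 h, with 8 at 3 h without the second control library, 3 and 2 without the first and second LPS library, and the highest counts at 6 h and 12 h without the first control library. It gave 0 to 3 for IL-10 alone at 3 h (3 without the second control library: C1qa, C3 and C5ar1) and 0 at 6 h and 12 h. For LPS with IL-10 against LPS it gave 0 to 1 at 3 h, 1 to 6 at 6 h (1 without the first LPS library or the second with both agents, 3 without the second LPS library) and 0 to 2 at 12 h. The interactions gave 0 to 1, 0 to 5 and 0 at 3, 6 and 12 h, and the 12 h against 6 h differences 0 to 1 for LPS, 0 for IL-10, 0 to 2 for both agents and 0 for the IL-10 effect. A lone library of a group is then assumed to vary like the others, and the share of all genes called is not set beside these counts. The causes were not tested.

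Replicate numbers were shared by the groups. Replicate differences of 2 groups correlated between -0.0507 and 0.273 over 6 pairs of groups at 3 h. In the other table they correlated between -0.411 and 0.703 over 21 pairs. The differences also followed GC content with either sign, so these correlations cannot show whether the numbers pair the libraries. The replicate block moved the counts for LPS at 3 h to 8 and for both agents against LPS at 12 h to 1, and moved no other count by over 1.5 times. Precision is limited by 2 libraries per group, and for Cfb without LPS by 1 to 10 reads.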

Other observations

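C4b, the murine C4 gene of the classical pathway, was higher with IL-10 alone than in control at 12 h. It read 36.4 and 49.3 with IL-10 and 2.81 and 4.34 in control, with 16.3 and 14.1 for IL-10 at 6 h. The 12 h change was 3.27 ± 0.36 (adjusted p = 0.0014, limma), called in 23 of 24 alternatives, with adjusted p up to 0.21. LPS raised it as well, to 19.5 and 32.6 at 6 h (log2 change 2.54), and with both agents it read 12.5 and 10.2. The interaction was -2.94 at 6 h (adjusted p = 0.010, limma; called in 22 of 24 alternatives) and -2.86 at 12 h (adjusted p = 0.048, limma; called in 6 of 24, with adjusted p up to 0.24). C4b and its near-identical neighbour C4a can share reads, so the split between them is uncertain. C4a was not called with IL-10 alone.

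Serping1, the C1 inhibitor, had 0 reads in both controls of each table. It read 25.8 and 19.3 with both agents at 6 h and 84.6 and 83.2 with LPS, a change of -1.86 for added IL-10 (adjusted p = 0.016, limma; called in 22 of 25 alternatives). At 12 h it read 43.8 and 17.8 with both agents and 53.0 and 74.1 with LPS, which was not called (adjusted p = 0.19, limma). C4b and Serping1 were picked after their values were seen.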
